A study of Drosophila melanogaster with 3 samples.

Results

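Regions of HLHm7-GFP chromatin immunoprecipitation (ChIP-seq) in the sequence next to the centromeres were few and weak, and the strongest were a pair inside fog on the X. Few regions were shared by all replicates, about as many as among regions of like rank elsewhere on the same arms. The pericentromeric regions were chosen by position alone on the dm6 build, as those lying inside chr2L:22000001-23513712, chr3L:22900001-28110227, chr3R:1-4200000 or chrX:22600001-23542271, which reach from a fixed border to the centromeric end of the assembled arm. Of 30000 regions in the list called on the pooled replicates, 216 (0.72%) met this rule. It was also met by 300 regions of the list of replicate 1, 216 of replicate 2 and 349 of replicate 3, each list again 30000 long. Of the 2397 regions in the authors' optimal set, the peaks kept by a test of reproducibility between replicates (irreproducible discovery rate, IDR), 2 met it.

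The samples were whole Drosophila melanogaster embryos of mixed sex aged 0 to 16 h, from a transgenic line in which HLHm7 (gene E(spl)m7-HLH) carries GFP at its C-terminus. An anti-GFP antibody was used for the precipitation, and the 3 libraries were biological replicates of 1 group, so there was no second genotype, treatment or stage to compare. The values mix all cell types of the embryo and all stages in that span, and the line expresses the fusion from a transgene. HLHm7 is a basic helix-loop-helix repressor of the Enhancer of split complex, which Notch signalling switches on. Each region came with a signal, the authors' own value which has no stated scale and was read only as a rank within its list, with rank 1 the strongest.

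Pericentromeric sequence in Drosophila is packaged as constitutive heterochromatin, marked by methylated lysine 9 of histone H3 and bound by HP1. It is rich in satellite DNA and in remains of transposable elements. Genes there are sparse and often have long introns full of elements, and several of them need this packaging for normal expression. E(spl) repressors are known for binding E-boxes near enhancers and promoters of neural genes in euchromatin.

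The sequences at the summits are given for the regions the results turn on: both optimal regions, regions at 2 ribosomal protein gene starts, the strongest region of the 3L and of the 3R window, and the strongest region inside an annotated transposable element. They are the plus strand of RefSeq Release 6, the assembly of dm6, read 5′ to 3′ from 100 bp before to 100 bp after the summit. At RpL15 and RpL10 they stop at the transcript start and hold 135 and 130 bases. Capitals mark matches on either strand to 1 of 10 motifs searched. The motifs were TATCGATA (the DNA replication-related element, DRE), the BEAF-32 core CGATA (which overlaps the DRE), the TATA box TATAAA and the Zelda site CAGGTAG. The others were the E-box CACGTG, the E-box CACCTG, the class C site of E(spl) repressors CACGCG, the GAGA repeat GAGAGAG, the Motif 1 core GGTCACAC and a satellite unit (AAGAGAAGA).
fog (chrX:22837468-22837668): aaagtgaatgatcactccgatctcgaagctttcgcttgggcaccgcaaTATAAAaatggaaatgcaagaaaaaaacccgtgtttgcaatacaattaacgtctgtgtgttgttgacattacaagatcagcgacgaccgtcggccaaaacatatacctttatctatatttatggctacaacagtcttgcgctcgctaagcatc
mir-2491 (chrX:22833597-22833797): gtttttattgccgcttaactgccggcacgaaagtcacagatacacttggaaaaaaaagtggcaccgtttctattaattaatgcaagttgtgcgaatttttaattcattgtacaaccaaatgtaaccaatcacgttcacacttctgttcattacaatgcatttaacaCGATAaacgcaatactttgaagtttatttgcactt
RpL15 (chr3L:27267120-27267254): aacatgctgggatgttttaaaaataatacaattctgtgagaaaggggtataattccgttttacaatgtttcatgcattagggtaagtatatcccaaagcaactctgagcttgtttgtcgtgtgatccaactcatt
RpL10 (chr3L:23095472-23095601): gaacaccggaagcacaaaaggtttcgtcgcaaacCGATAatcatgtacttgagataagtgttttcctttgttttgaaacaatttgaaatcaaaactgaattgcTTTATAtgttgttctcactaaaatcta
nvd (chr3L:24352750-24352950): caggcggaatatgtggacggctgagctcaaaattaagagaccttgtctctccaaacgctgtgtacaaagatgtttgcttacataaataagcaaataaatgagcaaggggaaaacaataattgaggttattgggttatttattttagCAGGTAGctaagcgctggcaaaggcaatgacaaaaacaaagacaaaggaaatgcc
CG12581 (chr3R:4175677-4175877): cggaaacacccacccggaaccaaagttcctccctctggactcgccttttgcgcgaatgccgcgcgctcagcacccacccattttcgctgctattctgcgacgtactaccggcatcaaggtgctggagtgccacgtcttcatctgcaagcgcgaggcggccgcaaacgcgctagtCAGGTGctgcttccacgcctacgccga
lncRNA:CR46475 (chr3L:23279074-23279274): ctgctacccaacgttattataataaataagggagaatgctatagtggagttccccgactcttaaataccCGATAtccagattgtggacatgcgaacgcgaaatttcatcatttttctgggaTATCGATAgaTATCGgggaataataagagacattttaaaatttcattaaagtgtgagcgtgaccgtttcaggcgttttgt

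None of these sequences held the E(spl) E-box CACGTG or the class C site CACGCG. On the rest of the arms these were in only 3.07% and 5.26% of summit windows, so their absence from so few sequences says little. The fog summit held a TATAAA, the mir-2491 summit a CGATA, and the nvd summit a CAGGTAG. The sequence beside RpL10 held a CGATA and a TATAAA, and the one beside RpL15 held no match. The CG12581 summit lay in coding sequence with a GC content of 61.7% and held a CACCTG, while the others shown had GC contents between 33.1% and 41.3%. The lncRNA:CR46475 summit, inside an INE-1 element, held 1 TATCGATA and 4 CGATA matches, of which the DRE itself supplies 2. A match is a description of the letters and not of a bound site.

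Replicate 3 stood apart from the others in ways that touch these regions. On chromosome 4, which is largely heterochromatic and was not among the windows, its list held 260 regions against 35 for replicate 1 and 30 for replicate 2. The mean GC content at its pericentromeric summits was 41.0%, against 46.0% and 46.3%, and in the rest of the same arms it was 43.4% against 47.4% and 47.4%. Results are therefore also given without it. No read numbers were in the lists, so depth is unknown, and the intervals below cover counting error only.

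The 2 optimal regions were neighbours on the X, inside fog, which encodes a secreted ligand that drives apical constriction of cells at gastrulation, and inside the overlapping gene CG42346 on the opposite strand. The stronger of them, at chrX:22837376-22837759, had a pooled signal of 167 and rank 885, with ranks 1353, 683 and 1189 in replicates 1, 2 and 3. Its summit was in an intron of both genes, 1309 bp upstream of a fog start site. The other, at chrX:22833505-22833888, had a signal of 116 and rank 1621, with ranks 2663, 1279 and 2400 in the replicates, and its summit was 114 bp upstream of the annotated start of mir-2491, a microRNA hairpin. Their deposited −log10 q-values were 3.32 and 2.67. The region at fog was among the 2397 strongest of all 3 replicates, the one at mir-2491 among those of replicate 2 only. The fog locus, with 2 kb upstream, held 8 pooled regions, ranked from 885 to 26341, and 7, 6 and 14 regions in replicates 1, 2 and 3.

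Just under the optimal set, whose lowest signal was 90.6, came a region at the start of RpL5, which encodes a protein of the large ribosomal subunit. This region, at chr2L:22536571-22536954, had a signal of 87.8 and rank 2520, with ranks 2323, 11336 and 3634 in replicates 1, 2 and 3. Its summit was 76 bp upstream of an RpL5 start site and within a transcript that starts further upstream. Replicate 2 placed it far lower than replicates 1 and 3 did. A region in an intron of Cda4, a gene of the chitin deacetylase family, was also lowest in replicate 2, with pooled rank 3025 and ranks 3980, 10667 and 3305. An intergenic region 818 bp upstream of Grl40a on 2L ranked 3675 in the pooled list and 3085, 7794 and 7592 in the replicates. Another region in fog, in a noncoding exon nearest to a CG42346 start, ranked 3794, with 6242, 5672 and 3240 in the replicates. A region 574 bp downstream of the CG17159 start on X ranked 3885, with 10897, 3865 and 6959.

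**Figure D1:**
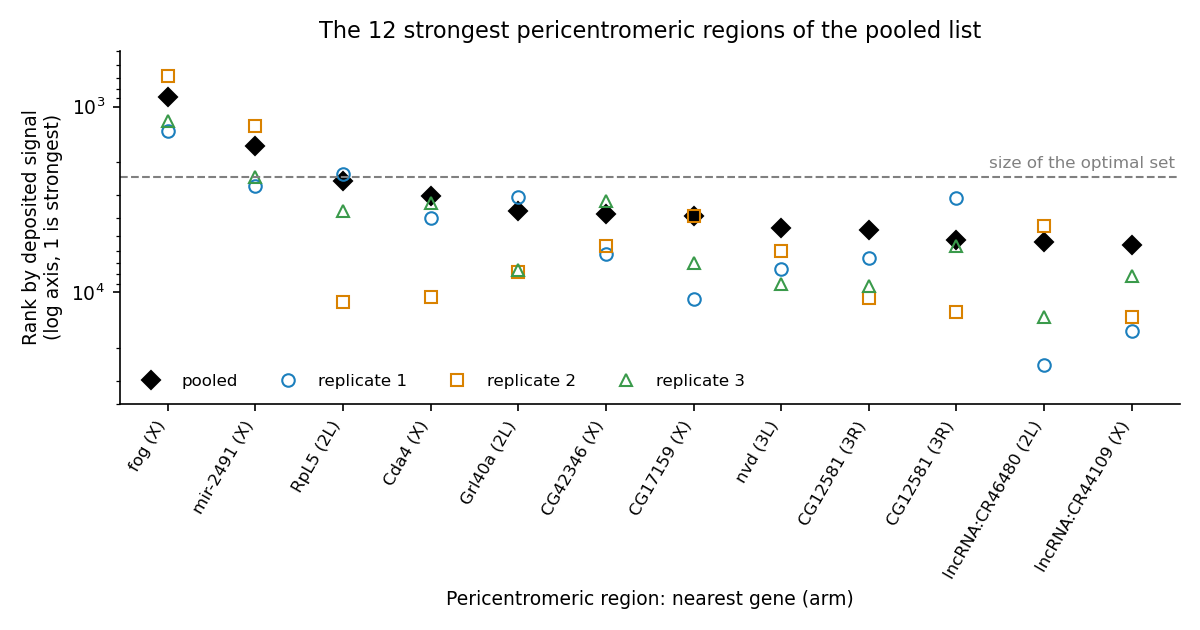
Rank by deposited signal (vertical log axis, rank 1 is strongest) of the 12 strongest pericentromeric regions of the pooled list, named by the nearest gene, with the pooled list as diamonds and replicates 1, 2 and 3 as circles, squares and triangles. The dashed line marks rank 2397, the size of the optimal set: fog lies above it in every list, mir-2491 and RpL5 in some of them, and the other 9 in none.

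The strongest region on 3L was in an intron of nvd, which encodes the oxygenase of the first step of ecdysteroid synthesis, 27984 bp downstream of the start site. It ranked 4516 in the pooled list and 7509, 6002 and 9010 in replicates 1, 2 and 3. The strongest on 3R was in a coding exon of CG12581, with rank 4652 and replicate ranks of 6576, 10761 and 9220. A region at the CG12581 start ranked 5242, with replicate ranks of 3102, 12808 and 5664. On 3L and 3R no region of any list reached the 2397 strongest, and on 2L 1 did, in replicate 1. The remaining regions formed a long weak tail: all 216 pooled regions were 384 bp wide, and their signals ran from 29.9 to 167 with a median of 35.4. Deposited −log10 q-values were 1.83 or more in the optimal set, 1.70 at RpL5, 1.22 at Cda4, 0.632 at nvd and 0.0252 at the weakest region. The lists include background by construction, so the ranks of weak regions given below do not by themselves show binding.

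The pericentromeric regions sat low in every list. In the pooled list 0.926% of them (2 of 216, 95% Wilson interval 0.254 to 3.31) were in the optimal set, against 8.20% (7.86 to 8.56) of the 23872 regions on the rest of the same arms, where the share over the whole list was 7.99%. Their median rank was 20379, against 14951.5 for the rest. Only 9 (4.17%) were among the 5000 strongest pooled regions, against 17.0% of the rest. At the other end, 46 of them (21.3%) were in the weakest 3000, against 9.87% of the rest.

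The same held in each replicate taken alone. Among the 2397 strongest regions of a replicate, again 7.99% of the list, were 2 of the 300 pericentromeric regions of replicate 1 (0.667%), 2 of 216 in replicate 2 (0.926%) and 1 of 349 in replicate 3 (0.287%). The rest of the same arms had 8.12%, 8.13% and 8.19% of their regions there. The mean was 0.626% ± 0.322 (SD, n = 3) against 8.15% ± 0.0374, a difference of -7.52 ± 0.352 percentage points. The share was lower in 3 of 3 replicates. The narrow spread of the rest comes from the lists, since 7.99% of each was counted and the rest makes up most of each list. The pericentromeric shares rest on 2, 2 and 1 regions. The exact two-sided sign-flip permutation test over replicates gave p = 0.25 (0.25 after Benjamini-Hochberg adjustment over 4 tests), which is the smallest p that 3 replicates allow, so it cannot pass 0.05. Without replicate 3 the difference was -7.33 percentage points.

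**Figure D2:**
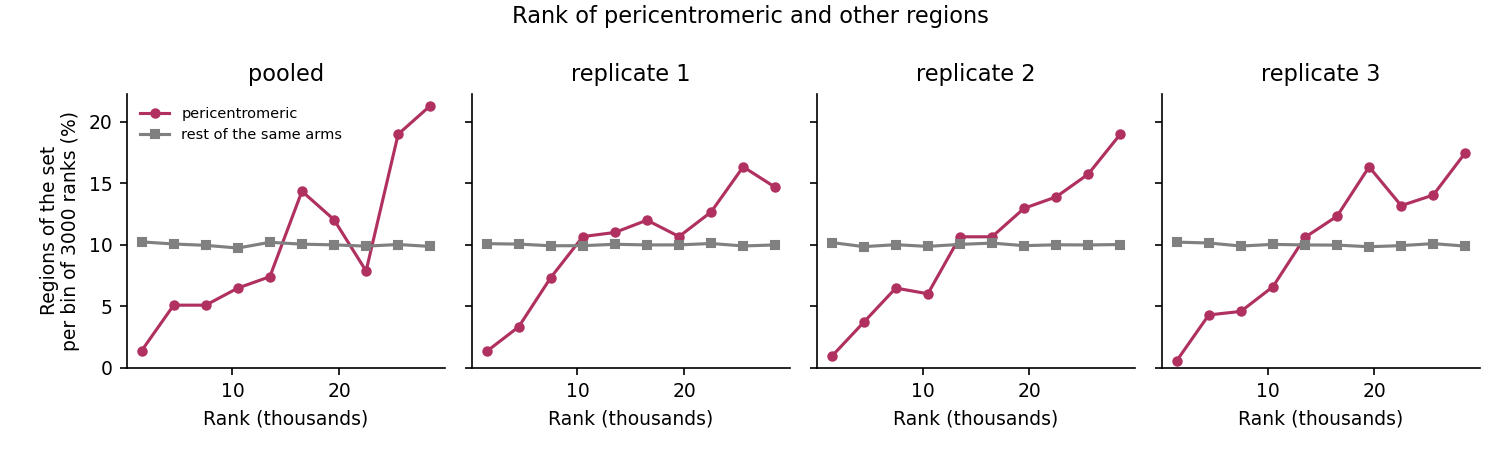
Share of regions (vertical axis, %) in each bin of 3000 ranks (horizontal axis, rank in units of 1000) for the pooled list and each replicate, with pericentromeric regions as circles and the rest of the same arms as squares. The rest is near 10% in every bin, while the pericentromeric share rises from 1.39% in the strongest pooled bin to 21.3% in the weakest, and every replicate has its lowest share in the strongest bin.

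By kind of position, the share of optimal regions was set apart from the rest by its interval in introns and in windows with no repeated 32-mer, and the intervals overlapped at start sites, in intergenic sequence, in coding exons and in windows with a repeated 32-mer. A summit within 500 bp of a start site was counted only there, and not under introns, exons or intergenic sequence. Of pericentromeric regions within 500 bp of a start site, 1 of 31 (3.23%, Wilson interval 0.572 to 16.2) was optimal, against 16.2% (15.2 to 17.1) of 5688 elsewhere on these arms. In introns 1 of 69 (1.45%, 0.256 to 7.76) was optimal against 9.50% (8.87 to 10.2) of 7777, and in intergenic sequence 0 of 70 (Wilson interval up to 5.20) against 5.78% (5.12 to 6.52) of 4307. In coding exons, where optimal peaks were rare everywhere, the shares were 0 of 35 (up to 9.89) and 0.166% of 5432. Among regions whose summit window held no 32-mer repeated in the genome, 2 of 161 pericentromeric regions (1.24%, 0.341 to 4.42) were optimal against 8.25% (7.91 to 8.61) of 23570. Among those with such a 32-mer, the shares were 0 of 55 (up to 6.53) and 4.30% (2.53 to 7.22) of 302. By the limit of 3 counts, a share of 0 allows up to 4.29% in intergenic sequence, 8.57% in coding exons and 5.45% with a repeated 32-mer. In intergenic sequence this limit lies below the 5.12% where the interval of the rest starts, while the Wilson limit of 5.20 does not. Whether the intergenic share is set apart thus depends on the limit used.

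The regions were also sparse along the sequence. The 4 windows held 11.7 Mb of assembled sequence. Replicates 1, 2 and 3 listed 25.6, 18.4 and 29.8 regions per Mb there, against 250.9, 250.4 and 251.7 on the rest of the same arms. The mean was 24.6 ± 5.73 (SD, n = 3) against 251 ± 0.634, a 10.2-fold lower density, with a difference of -226 ± 5.13 per Mb (lower in 3 of 3; exact sign-flip permutation test, p = 0.25, adjusted 0.25). The narrow spread outside the windows comes from the lists themselves, which all end at 30000 regions. Without replicate 3 the difference was -229 per Mb.

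The shortfall was smaller when set against the sequence that could be told apart. Of positions taken every 500 bp in the windows, 60.6% had a summit window (100 bp to either side) in which more than 50% of the 32-mers occur more than once in the genome, against 5.59% on the rest of the arms. All pooled regions, divided by the Mb of the remaining, mostly unique sequence, came to 46.8 per Mb in the windows (4.62 Mb) and 265 outside. The few regions in mostly repeated windows were not taken out. How reads with several genomic positions were treated is not given in the sources used here. The part of mappability in the density was not tested. The control reads were not analysed here either.

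Density and rank differed between the 4 windows. The pooled list held 51.0 regions per Mb in the X window (48 regions), 36.3 on 2L (55), 15.5 on 3L (79) and 8.14 on 3R (34). The rest of the same arm held 182 per Mb on X, 253 on 2L, 284 on 3L and 276 on 3R. The shortfall was thus smallest on X and largest on 3R, and the 10.2-fold value is for the 4 windows together. In replicates 1, 2 and 3 the X window held 45, 45 and 68 regions, the 2L window 77, 62 and 81, the 3L window 127, 83 and 158, and the 3R window 51, 26 and 42. The 3R window had the lowest density in all 3 replicates. X and 2L exchanged places in replicate 1, where 2L held 50.9 per Mb and X 47.8. Over these 4 windows the order followed the share of repeated positions, which was 49.0% on X, 52.0% on 2L, 60.1% on 3L and 66.9% on 3R. With all regions divided by the Mb of mostly unique sequence the order was the same, at 100.1, 75.7, 38.9 and 24.6.

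The density of pericentromeric regions was highest near the edge of the windows that faces the chromosome arm. In the 500 kb just outside the edges the pooled list held 375 regions (193.7 per Mb, 18 of them optimal), and in the first 500 kb inside it held 120 (60.1 per Mb, 2 optimal). From 500 to 1000 kb inside there were 31 (16.0 per Mb), and beyond 1000 kb 65 (8.34 per Mb), none of them optimal in either stretch. Over the whole pooled list 7.99% of regions were optimal, which is above the share just outside the edges as well as inside. The first 500 kb thus held 55.6% of the pooled regions, and 45.0%, 50.9% and 53.6% of those of replicates 1, 2 and 3. The share differed by arm: in the pooled list it was 45 of 48 on X, 36 of 55 on 2L, 19 of 34 on 3R and 20 of 79 on 3L, where 47 lay beyond 1000 kb. The step at the edge was from 288 to 40 per Mb on 3L, from 270 to 38.2 on 3R and from 142 to 72.0 on 2L. On X it went the other way, from 57.4 outside, where 0.436 Mb of the stretch was assembled sequence, to 90.0 inside. Of the regions deepest inside, the one at RpL15 ranked highest beyond 4 Mb from the edge of the 3L window.

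**Figure D3:**
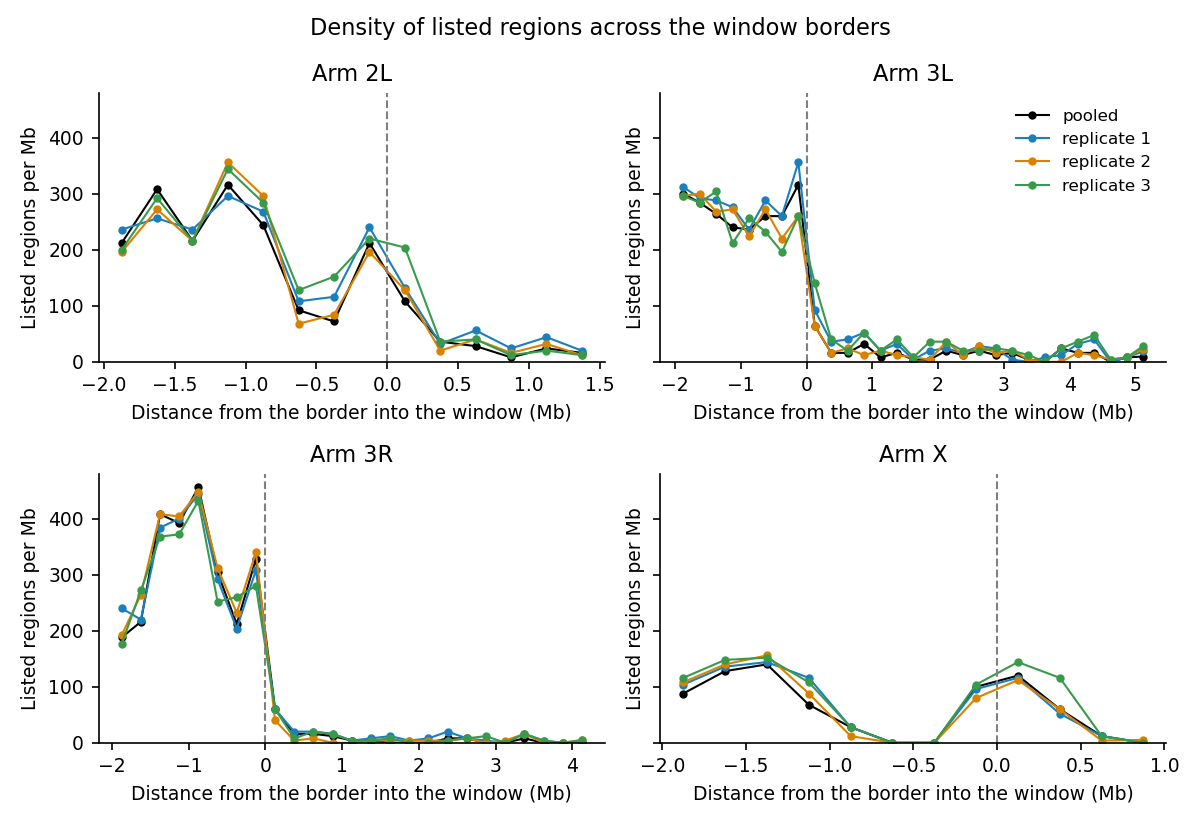
Listed regions per Mb (vertical axis, assembly gaps included) in bins of 250 kb by distance from the edge of each window (horizontal axis, Mb, positive toward the centromere, dashed line at the edge), for the pooled list and each replicate on arms 2L, 3L, 3R and X. The curves of all lists fall at the edge on 3L and 3R, while on 2L they dip outside the edge, rise again just before it (pooled 72, then 212 per Mb) and fall inside, and on X they are at 0 in part of the stretch outside and higher just inside.

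Few pericentromeric regions were found in all replicates. With summits within 200 bp counted as shared, 25 of the 216 pooled regions (11.6%, Wilson interval 7.96 to 16.5) were in all 3 replicate lists, against 24.0% (23.4 to 24.5) on the rest of the arms and 23.6% of the whole pooled list. A further 70 were in 2 replicates, 104 in 1 and 17 in none. The 25 were 10 on X, 7 on 2L, 5 on 3L and 3 on 3R. At like pooled rank the sets were close: all 9 pericentromeric regions ranked 1 to 5000 were in every replicate (85.4% of the rest), as were 13 of the next 46, ranked down to 15000 (28.3% against 25.0%), and 3 of 161 ranked below that (1.86% against 2.30%). The pooled list was made from the same reads as the replicates, so these shares are not independent of rank.

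Between replicates the overlap was also lower than elsewhere. The pairs were not matched for rank or for the density of listed regions, which was 10.2-fold lower in the windows. How much of the gap goes with rank or density was not tested. Of the pericentromeric regions of replicate 1, 19.7% had a partner in replicate 2, and 27.3% of those of replicate 2 had one in replicate 1, against 42.5% and 42.8% on the rest of the arms. For replicates 1 and 3 the shares were 17.0% and 15.2%, against 35.9% and 36.0%. For replicates 2 and 3 they were 22.2% and 13.8%, against 37.5% and 37.3%. The replicate lists together covered 723 pericentromeric places, of which 615 were in 1 list, 83 in 2 and 25 in 3. Of the regions of replicates 1, 2 and 3, 42.3%, 50.5% and 24.1% were also in the pooled list, with replicate 3 the lowest, against 63.6%, 65.7% and 52.7% on the rest of the arms.

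The summits were rarely in repeated sequence. Only 2 of 216 pooled summit windows (0.926%, Wilson interval 0.254 to 3.31) consisted mostly of repeated 32-mers, against 60.6% of evenly spaced window positions. Both were weak, with ranks 18941 on 3R near CG42402 and 26195 on 3L near lncRNA:CR46482. In replicates 1, 2 and 3 the share was 1.33%, 1.85% and 0.860%, against 0.0376%, 0.0503% and 0.0167% on the rest of the arms. The mean difference was 1.31 ± 0.480 percentage points (SD, n = 3; higher in 3 of 3; exact sign-flip permutation test, p = 0.25, adjusted 0.25), and 1.55 without replicate 3. In the stronger part of each list, ranks up to 15000, no pericentromeric window was mostly repeated and the difference was -0.0418. At least 1 repeated 32-mer was present in 55 windows (25.5%), against 1.27% on the rest of the arms.

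Transposable elements lay under 23 of the 216 summits (10.6%), against 15.0% of evenly spaced window positions and 10.7% of those in mostly unique sequence. On the rest of the arms 0.142% of summits lay in an element, against 4.04% of positions. The LTR element gypsy8 was under 7 summits, the non-LTR element Cr1a under 4 and the short INE-1 under 2, and 13 other families were under 1 each. The windows hold 27 annotated gypsy8 copies, 61 of Cr1a and 350 of INE-1. The strongest of these regions was the INE-1 at lncRNA:CR46475 shown above, within nAChRalpha4, with pooled rank 8899 and replicate ranks of 20790, 28524 and 9291. The mean GC content of the pericentromeric summit windows was 46.6%, against 39.0% at mostly unique window positions and 47.0% at summits on the rest of the arms.

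**Figure D4:**
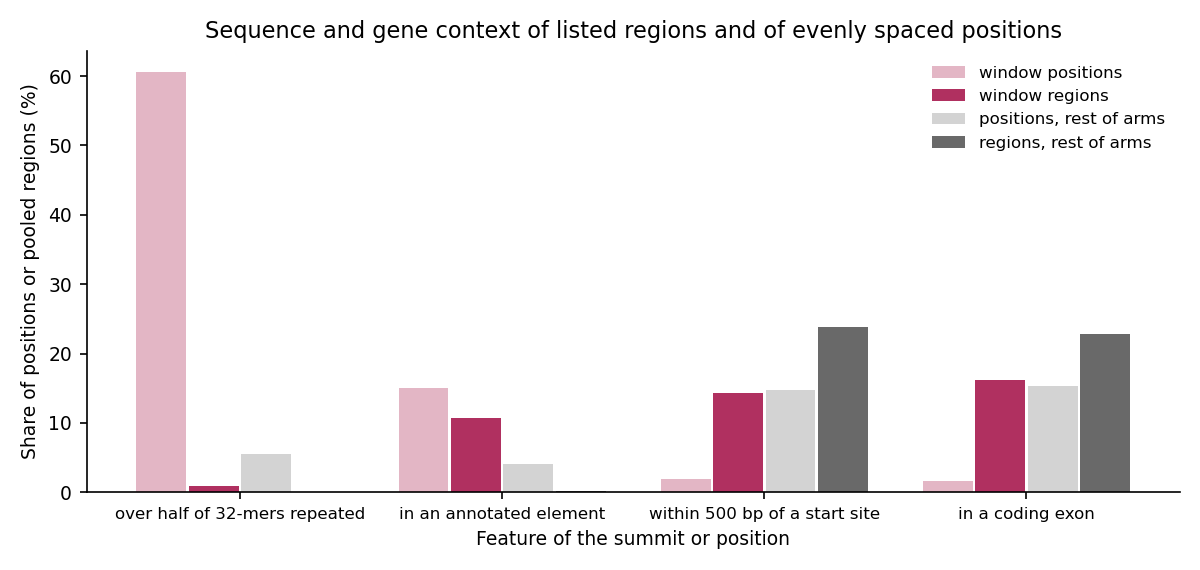
Share (vertical axis, %) of evenly spaced positions and of pooled regions whose window of 100 bp to either side was mostly repeated, or whose summit or position lay in an annotated transposable element, within 500 bp of a start site or in a coding exon, for the windows and for the rest of the same arms. The coding exon bars leave out whatever lay within 500 bp of a start site. Bars are shares of 23455 window positions, 216 window regions, 190613 other positions and 23872 other regions, without error bars: the window regions are at 0.926% for repeated windows where the positions are at 60.6%.

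Start sites and coding exons held a larger share of the summits than of evenly spaced positions. Within 500 bp of a start site lay 31 of 216 summits (14.4%, Wilson interval 10.3 to 19.7), against 1.87% of window positions and 3.93% of those in mostly unique sequence. On the rest of the arms 23.8% of summits and 14.8% of positions lay there. The counts for exons, introns and intergenic sequence leave out whatever lay within 500 bp of a start site. Coding exons held 35 summits (16.2%), against 1.56% of window positions and 3.75% of those in mostly unique sequence. Intergenic sequence held 70 (32.4%), against 51.6% of window positions and 38.8% of those in mostly unique sequence. Introns held 69 (31.9%), against 43.7% of window positions. Of the 216 summits, 133 were over an annotated gene. Compared with the rest of the arms the share near start sites was lower in each replicate, at 12.7%, 10.6% and 11.7% against 22.3%, 23.6% and 23.4%. The mean difference was -11.4 ± 1.68 percentage points (SD, n = 3; lower in 3 of 3; exact sign-flip permutation test, p = 0.25, adjusted 0.25), and -11.3 without replicate 3.

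Of 114 protein-coding genes in the windows, 67 (58.8%, Wilson interval 49.6 to 67.4) had a pooled region in their span or 2 kb upstream, against 75.9% of 10899 genes on the rest of the arms. An optimal region was at 2 of them (1.75%, 0.482 to 6.17), fog and CG42346, which overlap, against 17.9% of the others. Median gene length was 6458 bp in the windows and 2164 bp on the rest of the arms.

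A list of 33 genes known from heterochromatin or next to it, among them ribosomal protein genes, had 24 members in the windows. Of these, 21 had a pooled region, 1 (fog) an optimal one, and 3 had none: cta, the G protein alpha subunit that acts downstream of fog, spok, a cytochrome P450 of ecdysone synthesis, and Set1, a histone H3 lysine 4 methyltransferase. In replicates 1 and 2 cta had 1 region each, at ranks 12350 and 12034. Set1 had 2 regions in replicate 3, the better at rank 14385, and spok 1 in replicate 1, at rank 23270.

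At several listed genes the pooled list ranked the best region low while a replicate ranked one higher. The deposited −log10 q-values of the pooled regions at lt and vtd were only 0.0266 and 0.0290. At lt, needed for vesicle transport to lysosomes, the best pooled rank was 29446, and the best ranks were 15893 in replicate 2 and 12274 in replicate 3, with none in replicate 1. At vtd, the Rad21 subunit of cohesin, the pooled rank was 28161, with 9346 in replicate 1, none in replicate 2 and 8759 in replicate 3, where it had 7 regions. Replicates 1 and 3 thus listed vtd and replicate 2 did not. At Parp1, the poly(ADP-ribose) polymerase, the best pooled rank was 25434, and the replicates gave 14865, 23026 and 13455. At su(f), which acts in mRNA 3′ end cleavage, it was 20452, with 25014, 17981 and 10425 in the replicates. Alg-2, a calcium-binding protein, had a pooled rank of 24247 and, among the replicates, regions only in replicate 3, the better at rank 7899. The gene nrm, a cell surface protein, had a best pooled rank of 16760, no region in replicate 1, rank 29724 in replicate 2, and 10 regions with a best rank of 4869 in replicate 3. Replicate 3, which stood apart on chromosome 4, gave the best replicate rank at each of the genes in this paragraph. This was not general among the listed genes. The best replicate rank came from replicate 1 at Snap25, AGO3, Cht10 and Gfat1, and from replicate 2 at Dbp80 and Spf45. It came from replicate 3 at Myo81F, stnA, stnB and Pzl.

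The other listed genes spanned a similar range. Snap25, a synaptic SNARE protein, had a best pooled rank of 18721, with 6460, 18347 and 11663 in replicates 1, 2 and 3, and AGO3, the piRNA pathway Argonaute, had 14415, with 8914, 11684 and 19674. Myo81F, a myosin gene that spans 1965857 bp, had 6 pooled regions with a best rank of 8911, and best ranks of 12159, 6769 and 6542 in the replicates. Gfat1, an enzyme of the hexosamine pathway, ranked 9251 in the pooled list and 7313 in replicate 1, with no region in the others. These genes had no region among the 5000 strongest of any list. Cht10, a chitinase, had a best pooled rank of 11244, with 6034, 17500 and 17192 in the replicates. The overlapping genes stnA and stnB, which act in synaptic vesicle recycling, shared 12614, with 10416, 16297 and 5469. The region 2 kb upstream of Spf45, a splicing factor, ranked 6901, in the span of lncRNA:CR43242, and the best ranks at the gene in the replicates were 6465, 4552 and 18401. Replicate 1 had no summit within 200 bp of the pooled one, so its 6465 belongs to another region at the gene. Replicate 2 placed the pooled region far higher than replicate 3 did. Dbp80, a DEAD-box RNA helicase, had a best pooled rank of 13603 and replicate ranks of 10646, 7155 and 13783. The complex I subunit gene ND-AGGG had 15773 in the pooled list, 12970 in replicate 1 and 14059 in replicate 2. Pzl, a Piezo-like channel, was low in every list, with 23797 in the pooled list and 23295, 28931 and 17304 in the replicates.

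Apart from RpL5, no ribosomal protein gene of the windows had a region among the 5000 strongest of the pooled list. RpL15 on 3L, whose summit was 35 bp upstream of the start, had a signal of 52.6 and rank 7036, with ranks 10401 in replicate 1 and 3801 in replicate 3 and no partner in replicate 2. RpL10 on 3L, with the summit 30 bp upstream, had a signal of 50.4 and rank 7889, with a partner within 200 bp in replicate 3 only, at rank 4188. Replicate 1 had another region at RpL10, at rank 12742. Neither summit was found in all replicates, and the deposited −log10 q-values of the pooled regions were 0.318 at RpL15 and 0.266 at RpL10. RpL21 on 2L had no pooled region and 1 region in replicate 1, at rank 15486. The mitochondrial ribosomal protein gene mRpS5 on 3L had a best pooled rank of 22031.

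Motif shares at the pericentromeric summits were within counting error of those at evenly spaced window positions, except for the TATA box and the DRE. No allowance was made for the 10 motifs searched. Mean GC content was 46.6% at the summits and 39.8% at the window positions, and the part of base composition in these shares was not tested. The E(spl) E-box CACGTG was in 5 of 216 windows (2.31%, Wilson interval 0.993 to 5.30), in 3.07% on the rest of the arms and in 2.03% of window positions. The class C site CACGCG was in 9 (4.17%, 2.21 to 7.73), against 5.26% and 2.79%. The DRE, TATCGATA, was in 5 (2.31%, 0.993 to 5.30), against 0.836% of window positions, 1.11% of all and 3.12% of optimal regions on the rest of the arms. The E-box CACCTG was in 12 (5.56%, 3.21 to 9.46), below the 10.5% of the rest and near the 5.82% of window positions. The TATA box TATAAA was in 29 (13.4%, 9.51 to 18.6), against 25.2% of window positions, 14.8% of all and 29.3% of optimal regions on the rest of the arms. CGATA was in 57 (26.4%, 21.0 to 32.6), against 21.2% of the rest and 23.8% of window positions. GAGAGAG was in 8 (3.70%) and CAGGTAG in 2 (0.926%), while GGTCACAC and AAGAGAAGA were in 0 of 216, which by the limit of 3 counts allows shares of up to 1.39%.

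On chromosome 4, the share of optimal regions was above that of the windows in the pooled list. Its 31 pooled regions (23.3 per Mb) had a median rank of 14500, and 4 of them were optimal (12.9%, Wilson interval 5.13 to 28.9), against 2 of the 216 pericentromeric regions, and this interval holds the 7.99% of the whole list. Among the 2397 strongest regions of replicates 1, 2 and 3 were 6 of 35 (17.1%), 4 of 30 (13.3%) and 9 of 260 (3.46%) of their chromosome 4 regions, the last below the 8.19% of the rest of the arms. Of the 31, 10 (32.3%, 18.6 to 49.9) were in all 3 replicates. The density was close to the 18.4 per Mb of the windows in the pooled list, but in replicate 3 it was 195 per Mb on chromosome 4 and 29.8 in the windows. The arm 2R was not analysed here.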

How the data were processed

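ChIP-seq peak lists on dm6 were used for 3 biological replicates of 1 group and for the replicates pooled. The authors called each list against a control and derived the optimal set by IDR, per the file descriptions deposited with the samples; chromatin was sonicated, per the labels. Which aligner, peak caller and IDR threshold were used, and in which versions, is not given in the sources used here. The deposited signal of a region has no stated scale, so only its rank within a list was used. The deposited −log10 q-value was printed as the authors gave it. The lists carry no read numbers, so depth is unknown.

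Every optimal region was checked to be among the 2397 pooled regions of highest signal. Start sites, exons and transposable elements came from Ensembl release 115. The genome sequence was RefSeq Release 6, in which all 32-mers were counted on both strands. A window from 100 bp before to 100 bp after the summit was called repeated when more than 50% of its 32-mers occurred more than once. Evenly spaced positions every 500 bp describe the background. Differences between the windows and the rest of the same arms were tested over replicates by an exact two-sided sign-flip permutation test with Benjamini-Hochberg adjustment over 4 tests. The matching of summits was checked on simulated lists, and the sign-flip test on fixed values with a known result. Alternatives were other borders, list lengths, window sizes and summit distances, the upper part of each list, leaving out each replicate, and, added after seeing the data, density per Mb of mostly unique sequence.

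The regions, gene lists, motifs and tests were chosen with earlier results of these data known. The genes named are those at the strongest regions of each window, the listed genes and, chosen after their values were seen, the other ribosomal protein genes, the genes at the mostly repeated summits and that at the strongest region in an element. Untranslated sequence is not printed. Scripts ran in Python 3.11.15, with tables handled by pandas 2.3.3, arrays by NumPy 2.4.6 and plots by Matplotlib 3.10.9.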

Additional observations from a re-analysis of the deposited data

Results flagged for a closer look

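The lists on the older dm3 build, which enter no comparison above, also held regions on the heterochromatic scaffolds of 2L, 3L, 3R, X and Y. There were 27 such regions in the pooled dm3 list, 98 in that of replicate 1, 61 in that of replicate 2 and 87 in that of replicate 3, and 0 in the optimal dm3 set. The dm3 lists differ in length, with 22786 regions in the pooled list, 26124 in replicate 3 and 30000 in the others, so their ranks are not on the same footing. The best ranks on these scaffolds were 3864, 2200, 3804 and 3779 in the pooled list and replicates 1, 2 and 3, and their median ranks 15914, 20184.5, 22775 and 18581. They were flagged as signal in data outside the main measurement. No coordinates were converted between builds, so which of them lie in the dm6 windows was not tested.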

How the results depend on the processing

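Of 25 alternatives to the 4 tested differences, 24 kept the direction and 1 reversed it. The reversal was the share of mostly repeated windows in the upper part of each list, -0.0418 percentage points in place of 1.31, and there the lists held no mostly repeated pericentromeric window. With each replicate left out, the differences ran from -7.68 to -7.33 percentage points for the strongest regions, from -229 to -224 regions per Mb, from 1.07 to 1.55 percentage points for repeated windows and from -12.3 to -10.6 for start sites, where 2 replicates allow no permutation p below 0.5. With the 5000 or the 1000 strongest regions of each replicate, the difference in share was -14.0 and -3.21. With all regions divided by the Mb of mostly unique sequence, an alternative added after seeing the data, the difference in density was -203.

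The share of pooled pericentromeric regions found in every replicate was 11.6%. It was 6.25% of the 96 regions left with borders 500 kb further in, 6.02% with summits within 50 bp (9.88% on the rest of the arms), 13.0% with any overlap (30.3%), and 20.4% to 25.9% with a replicate left out, where fewer lists have to match. The number of optimal pericentromeric regions was 2, and 0 with the borders moved, since both lie in the first 500 kb, and 1 in the upper 1198 of the optimal set. No paired analysis was possible because the samples form 1 group, so no replicate number is shared between groups. The tested differences were already taken within each replicate.

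Unknown depth, control reads not analysed here and 3 replicates limit these values. Weak regions include background by the lists' construction, and how multiply mapping reads were handled is not given in the sources used here.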
